A study of Mus musculus with 9 samples.

Results

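AP-1 is a family of dimeric transcription factors, and its 7 genes Fos, Fosb, Fosl1, Fosl2, Jun, Junb and Jund were followed here in mouse embryonic fibroblasts of 3 Rb1 genotypes under serum deprivation. Members were taken by symbol, each had 1 probe set on the array, and they are 7 of the 19938 genes tested. The first group was wild type (Rb +/+, WT), the second was homozygous for the ΔG allele (Rb ΔG/ΔG), in which the retinoblastoma protein is mutated at its common E2F contact site, and the third was homozygous null (Rb -/-). Each genotype had 3 arrays, 9 in all. Fibroblasts were plated thinly on 15 cm dishes, and after 24 h all groups received medium with 0.1% serum; how long they stayed in it is not stated in the labels. The series text calls the genotypes littermate pairs, but no label ties an array to a litter or an embryo, so the p-values speak only to the variation among these arrays, part of which may be technical.

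AP-1 proteins bind DNA as pairs held together by leucine zippers. JUN proteins can pair with each other or with FOS proteins, whereas FOS proteins bind stably only with a JUN partner. In resting fibroblasts, serum growth factors act through MAP kinases and the serum response factor to induce Fos, Fosb and Junb within minutes, while Fosl1 follows later and depends in part on AP-1 itself. The retinoblastoma protein restrains E2F factors, which drive genes of DNA replication, so the study's genotypes address whether E2F contact or the whole protein is needed to hold gene expression in the resting state.

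Promoter sequences show which short elements lie before the members' start sites, and 6 of the 7 members matched an entry in RefSeq's promoter sequences for GRCm38.p6, the exception being Fosl1. Windows of 300 bases, from 250 before to 50 after the annotated start, were searched on both strands for TGANTCA (the AP-1 element), TGACGTCA (the cyclic AMP element), the CArG box (bound by serum response factor) and TTTNNCGC (an E2F-like element). Only Fosl2 held a match to any of these, with TTTNNCGC present at 2 places, TTTTTCGC from -217 to -210 and TTTGGCGC from -206 to -199 relative to the start; 5.17% of all 32851 promoter windows hold that motif. The shares for TGANTCA, TGACGTCA and the CArG box were 7.81%, 1.79% and 1.63%. After the letters were seen, TGACNTCA, which contains TGACGTCA, was added because Jun carries TGACATCA from -45 to -38; 8.83% of windows hold it. These matches describe letters in the window and nothing about binding, and elements further from the start were not searched. The 250 bases before the start are given for both genes, 5′ to 3′ on the gene's strand, with the matches in capitals. Fosl2 is at chr5:32136222-32136471 on the plus strand and Jun at chr4:95052223-95052472 on the minus strand (GRCm38.p6).
Fosl2: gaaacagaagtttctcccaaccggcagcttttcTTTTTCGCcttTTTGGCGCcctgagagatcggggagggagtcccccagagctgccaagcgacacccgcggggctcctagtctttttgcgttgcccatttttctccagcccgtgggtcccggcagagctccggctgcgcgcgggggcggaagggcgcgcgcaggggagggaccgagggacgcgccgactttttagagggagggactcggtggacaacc
Jun: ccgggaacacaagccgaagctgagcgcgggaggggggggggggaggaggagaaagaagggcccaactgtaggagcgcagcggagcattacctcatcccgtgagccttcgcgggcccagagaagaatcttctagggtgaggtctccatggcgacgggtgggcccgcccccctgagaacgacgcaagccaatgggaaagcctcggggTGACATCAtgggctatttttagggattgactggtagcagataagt

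Array medians lay between 6.33 and 6.40 (log2), arrays correlated across probe sets at 0.990 to 0.994 within a group (Pearson's r) and 0.981 to 0.993 between groups, and no 2 arrays held identical values. ΔG replicate 3 was displaced toward the null arrays (24.2 to 27.4) along the leading principal component, at -0.30 while the other ΔG arrays were at -13.9 and -11.5. The sex-linked genes split the arrays across genotypes, with Xist, the RNA that silences an X chromosome, at 11.4 to 12.0 on the null arrays and WT replicate 3 and at 4.24 to 4.45 on the rest. ΔG and null therefore cannot be told apart from this split, and the WT group spans it. Of 12 fibroblast markers the mean signal was 10.4 to 11.3 on every array, and 9 fell in null (10.1% of all genes did). That count was 2 with the mean signal of Y-linked genes in the fit (the Y-linked covariate), 2 against the WT array of the null Xist pattern and 6 after repeated quantile normalisation. The 8 endothelial markers averaged 5.57 to 5.77, and Emcn fell in null (-0.81, limma adjusted p = 0.049), a call lost under most alternatives (-0.09 and adjusted p = 0.86 against the WT array of the null Xist pattern). The 8 epithelial markers averaged 5.92 to 6.03 on the null arrays, above all WT and ΔG arrays (5.68 to 5.83). Their median difference in null minus WT was only 0.036, with 6 above and 2 below 0. Krt19, a keratin, was the 1 marker called (12.5% of the list beside 18.4% of all genes). It rose 2.78-fold in null (limma adjusted p = 0.0013, called in all 19 alternatives), so the raised mean does not describe the markers as a set. The part of these cell type markers in the results was not tested. The 16 macrophage and leukocyte markers averaged 5.51 to 6.62 in WT, 5.90 to 7.24 in ΔG and 5.69 to 6.06 in null. All 16 had a higher mean in ΔG than in WT (median 0.50) and than in null (median 0.66), and none was called. An unadjusted limma p under 0.05 was met by 2 and 7 of them, against 11.8% and 23.1% of all genes. Over omissions of single arrays 0 to 11 were called higher in ΔG than in null. The part of these cells was not tested either. Of 15 measured G1/S genes 11 rose in ΔG and 15 in null, beside 0.602% and 8.38% of all genes. In bulk RNA, fewer cells of a type and less RNA per cell cannot be told apart.

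Fosl1 was the AP-1 gene that changed. Its RNA was lowest in WT, higher in ΔG and highest in null cells, where it was 2.36-fold above WT. The other 6 members were not called in any of the 3 comparisons. A call means an adjusted p under 0.05 in limma's moderated test, with Benjamini-Hochberg adjustment over all 19938 genes. In ΔG minus WT 0 of 7 members were called, against 0.813% of all genes, and 1 of 7 had an unadjusted p under 0.05, against 11.8%. In null minus WT 1 of 7 rose and none fell, where 8.38% of all genes rose, 10.1% fell and 18.4% were called; 3 of 7 (Fos, Fosb and Fosl1) had an unadjusted p under 0.05, against 30%. In ΔG minus null 1 of 7 was lower and none higher, against 8.71% called over all genes, 4.27% lower and 4.44% higher; 2 of 7 (Fosl1 and Jund) had an unadjusted p under 0.05, against 23.1%. The median log2 difference of the members was 0.07, 0.25 and -0.15 in the 3 comparisons, beside -0.018, -0.010 and -0.0075 over all genes. The groups of 2 of 7 members did not overlap in each comparison, beside 16.5%, 34.7% and 27% of all genes. With shares of this size over 7 genes, the counts do not set the family apart from the background.

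**Figure D1:**
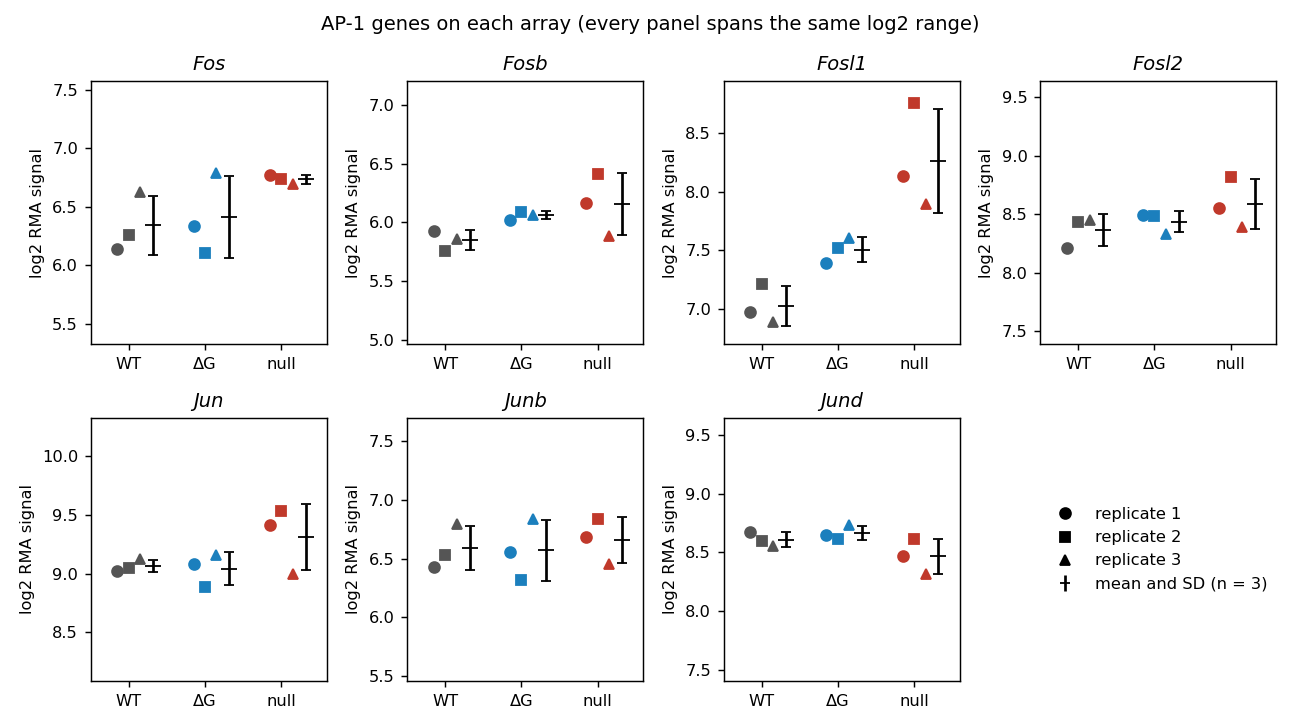
Log2 RMA signal (vertical axis) of each AP-1 gene on the 9 arrays, by genotype on the horizontal axis, with the replicate as the marker shape and the mean and SD of 3 arrays as a black bar; every panel spans the same range. Fosl1 rises from 6.89 to 7.21 in WT through 7.39 to 7.60 in ΔG to 7.90 to 8.76 in null, while the other genes overlap between at least 1 pair of genotypes.

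Fosl1 encodes FRA1, a FOS protein that lacks the strong activation domain of FOS and is known for its role in motile and invasive cells. Its group means were 7.03 ± 0.17 in WT, 7.51 ± 0.11 in ΔG and 8.26 ± 0.44 in null (SD, n = 3). On WT replicates 1, 2 and 3 it read 6.98, 7.21 and 6.89, on ΔG replicates 7.39, 7.52 and 7.60, and on null replicates 8.13, 8.76 and 7.90 (log2 signal). All 3 ΔG arrays lay above all 3 WT arrays and all 3 null arrays above both. In null it rose by a log2 of 1.24 against WT (SE 0.18, 95% interval 0.85 to 1.63, adjusted p = 0.00075 in limma), the 93rd largest rise among the genes tested. In ΔG it was 0.48 above WT (SE 0.18, interval 0.09 to 0.87, limma adjusted p = 0.31), which is not a call. ΔG was 0.76 below null (SE 0.18, interval -1.15 to -0.37, limma adjusted p = 0.023), so the null level exceeded that of ΔG beyond the spread of the arrays. The moderated F test over the 3 genotypes gave an adjusted p of 0.0024 in limma, and 15.3% of all genes passed it.

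The rise of Fosl1 in null held under every one of 19 alternatives, with values of 0.99 to 1.42. Against WT replicate 3, the WT array with the null arrays' Xist pattern, it was 1.38 (limma adjusted p = 0.012, with WT down to 1 array, assumed to vary like the ΔG and null arrays). The difference between ΔG and null was less firm. It lost its call without ΔG replicate 1 (-0.70, limma adjusted p = 0.093), ΔG replicate 2 (-0.77, 0.072) or null replicate 1 (-0.82, 0.056), and when the mean signal of Y-linked genes entered the fit (-0.99, 0.26). With those genes in the fit the SE was 0.34, beside 0.18 without them. Null replicate 2 had the highest reading, and without it ΔG was 0.51 below null (adjusted p = 0.030 in limma).

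**Figure D2:**
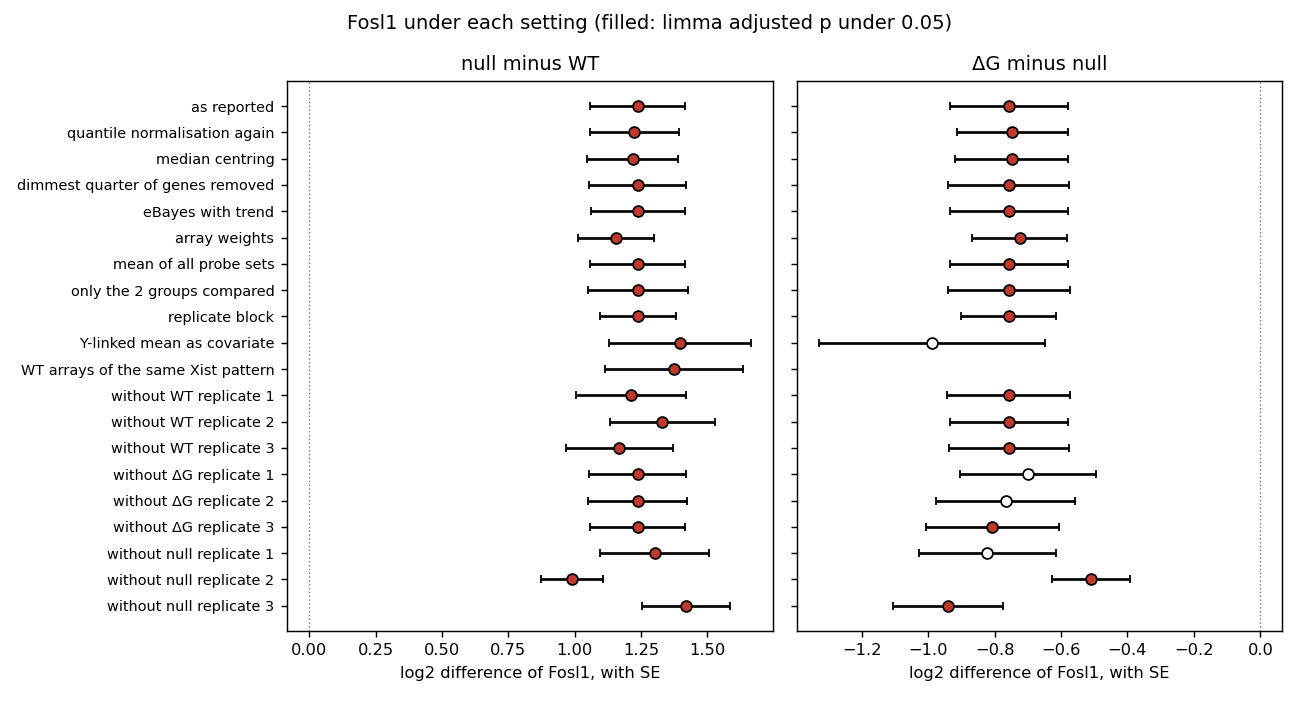
Log2 difference of Fosl1 (horizontal axis, bars are the SE) under each processing setting (rows), for null minus WT on the left and ΔG minus null on the right; filled points have a limma adjusted p under 0.05. On the left all points are filled and lie between 0.99 and 1.42, and on the right 4 of 18 alternatives are open.

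Fos, the founding member and a classic early response gene, did not separate the genotypes. It read 6.14, 6.26 and 6.62 on the WT arrays, 6.34, 6.11 and 6.79 on the ΔG arrays and 6.77, 6.74 and 6.70 on the null arrays. The 3 null readings lay close together and above every WT reading, while ΔG replicate 3 lay above them. The mean was 0.39 higher in null than in WT (SE 0.16, interval 0.04 to 0.75, limma adjusted p = 0.12), and ΔG differed from WT by 0.07 (interval -0.28 to 0.42). WT replicate 3 was near the null arrays. Against that array alone null was 0.11 higher (limma adjusted p = 0.82), and with the Y-linked genes in the fit 0.049 higher (0.93), whereas without it null was 0.54 higher and called (limma adjusted p = 0.045). Fos was also called in null without ΔG replicate 3 (0.39, adjusted p = 0.036 in limma), which enters this comparison only through the shared spread. It was then 0.51 lower in ΔG than in null (limma adjusted p = 0.027). With only the WT and null groups fitted, the rise of Fos in null was called as well (0.39, limma adjusted p = 0.042).

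Fosb, a second early FOS gene with a splice form that can act as a repressor, was not called in any comparison. It read 5.93, 5.75 and 5.86 in WT, 6.02, 6.09 and 6.07 in ΔG and 6.17, 6.41 and 5.89 in null. Each ΔG array lay above each WT array, but null replicate 3 fell within the WT range. The log2 differences were 0.21 for ΔG minus WT (SE 0.11, interval -0.04 to 0.46, limma adjusted p = 0.52) and 0.31 for null minus WT (SE 0.11, interval 0.06 to 0.56, limma adjusted p = 0.088). Without null replicate 3 the null difference was 0.44 and was called (adjusted p = 0.011 in limma). Fosl2, which encodes FRA2 and is the member with the E2F-like letters printed above, read 8.21, 8.44 and 8.45 in WT, 8.49, 8.49 and 8.33 in ΔG and 8.56, 8.82 and 8.39 in null. Its 3 groups overlapped. It was 0.22 higher in null than in WT (interval -0.02 to 0.46, limma adjusted p = 0.21) and 0.07 higher in ΔG (interval -0.17 to 0.31, adjusted p = 0.88).

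The JUN genes showed no call. When arrays were weighted by their fit, Jun joined Fosl1, Fos and Fosb as called in null minus WT (limma adjusted p = 0.049 for Jun, 0.017 for Fos and 0.034 for Fosb), and in ΔG minus null Jun and Fos joined Fosl1 (adjusted p = 0.049 and 0.047). Jun, the main partner of FOS proteins, read 9.02, 9.05 and 9.12 in WT, 9.08, 8.89 and 9.16 in ΔG and 9.42, 9.53 and 8.996 in null. Null replicates 1 and 2 were above all other arrays and null replicate 3 was below every WT array. The null mean was 0.25 above WT (SE 0.13, interval -0.03 to 0.52, limma adjusted p = 0.21). Without null replicate 3 the difference was 0.41 and was called (limma adjusted p = 0.018), and ΔG was then 0.43 below null (adjusted p = 0.029).

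Junb, which often opposes Jun in growth control, had the least difference between genotypes relative to its spread. Its readings were 6.43, 6.53 and 6.80 in WT, 6.55, 6.32 and 6.84 in ΔG and 6.69, 6.83 and 6.45 in null, and each group covered most of the range of the others. Null minus WT was 0.07 (interval -0.24 to 0.38) and ΔG minus WT -0.02 (interval -0.33 to 0.30). A change in log2 array signal of 0.39 or more in either direction lies outside both intervals. The Junb readings were near the array medians (6.33 to 6.40), and the intervals describe signal, not the amount of RNA. Jund, the JUN gene known for steady expression in resting cells, read 8.68, 8.60 and 8.55 in WT, 8.65, 8.61 and 8.73 in ΔG and 8.47, 8.61 and 8.32 in null. It was the only member whose mean was lower in null than in WT, by -0.14 (interval -0.33 to 0.04, limma adjusted p = 0.30). ΔG arrays all read above the null arrays, with a difference of 0.20 (SE 0.08, interval 0.02 to 0.38, limma adjusted p = 0.18).

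**Figure D3:**
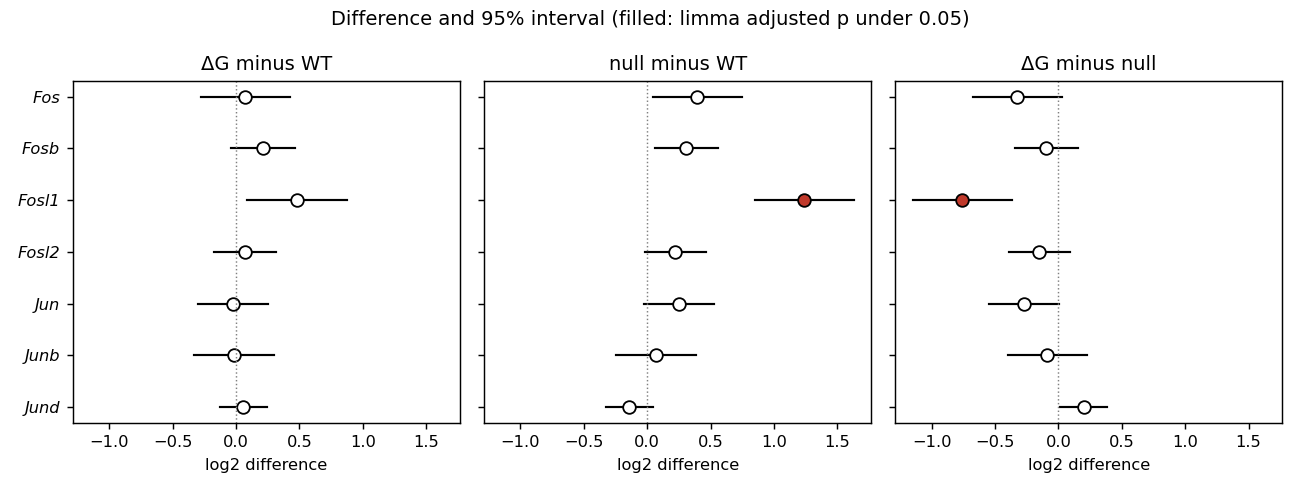
Log2 difference (horizontal axis) of each AP-1 gene (rows) with its 95% interval for each pair of genotypes; filled points have a limma adjusted p under 0.05. Fosl1 is filled at 1.24 in null minus WT and at -0.76 in ΔG minus null, and every other point is open.

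Within a genotype the members varied together on some arrays. Null replicate 3 had the lowest reading of its group for all 7 members and null replicate 2 the highest for 6 of 7. Over all genes these 2 arrays were the lowest and highest of their group for 47% and 44.6%. ΔG replicate 3 was the highest of its group for 5 of 7 members and WT replicate 3 for 4 of 7, beside 34.6% and 32.8% of all genes. The heat shock and handling stress genes (11 measured) deviated from the null mean by 0.16 on null replicate 2 and by -0.19 on null replicate 3, and the other immediate early genes (22 measured) by 0.11 and -0.10. On ΔG replicate 3 the immediate early genes deviated by 0.21 and the stress genes by 0.02. The part of handling in the members' readings was not tested. Of the stress genes, Dnajb1, a heat shock co-chaperone, rose in null by 0.41 (SE 0.10, limma adjusted p = 0.017), a call lost without WT replicate 2 (0.37, adjusted p = 0.066), null replicate 1 (0.39, 0.060) or null replicate 2 (0.33, 0.065), with the Y-linked covariate (0.31, 0.26) and against the WT array of the null Xist pattern (0.33, 0.23).

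**Figure D4:**
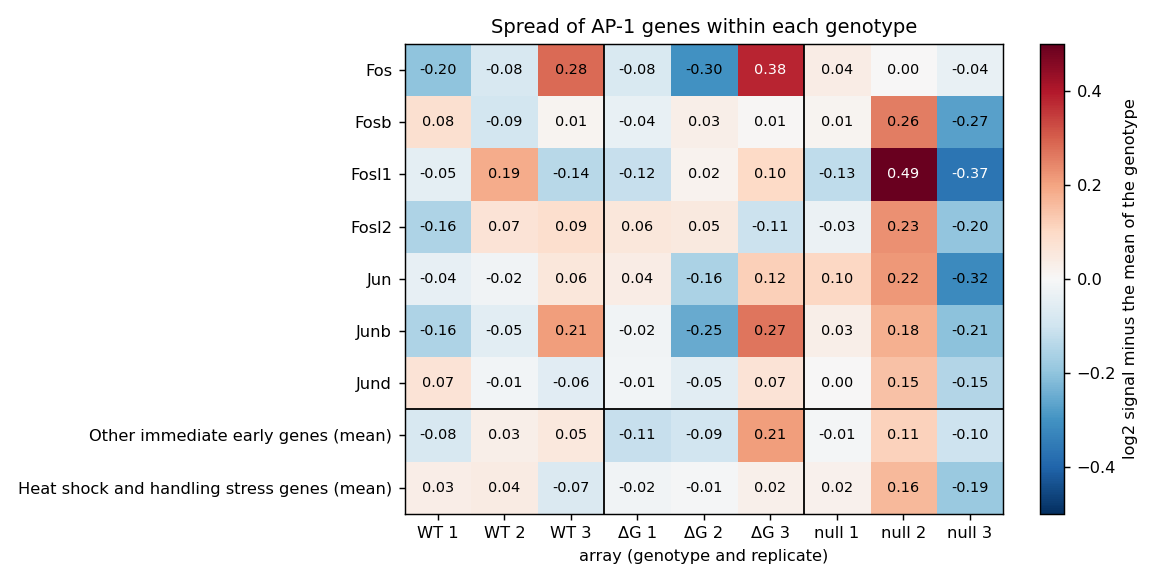
Deviation of each AP-1 gene (rows) from the mean of its genotype on each array (columns), as log2 signal in colour and in figures, with the mean deviation of 2 fixed gene lists in the lower rows. Null replicate 3 is below its group mean for all 7 genes and null replicate 2 at or above it, while Fos and Junb peak on replicate 3 in WT and in ΔG.

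The profile of Fosl1 over the 9 arrays was closest to those of Aif1l, Gnb1l and Mthfd1, among 9716 named genes of at least median signal. Likeness was the root mean square difference of log2 signals centred on each gene's mean, which was 0.12, 0.13 and 0.14 for these 3 genes. Their means in WT, ΔG and null were 7.29, 7.74 and 8.33 for Aif1l, 7.11, 7.59 and 8.21 for Gnb1l and 8.02, 8.37 and 9.05 for Mthfd1, an enzyme of folate metabolism; the choice of genes fixes that these resemble Fosl1. The distances of the other AP-1 members from Fosl1 were 0.42 to 0.60. Among the 10 measured genes next to Fosl1 on chromosome 19, 5 on each side, 1 was called in null minus WT, beside 18.4% of all genes. It was Eif1ad (0.34, limma adjusted p = 0.030), chosen after its value was seen. The ΔG minus WT comparison called 0 of these 10 genes, beside 0.813% of all genes.

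Among the partners of AP-1 in the wider bZIP family, 16 measured of 17 listed, 2 rose and 2 fell in null minus WT, or 25% beside 18.4% of all genes, with a median of -0.0035. None was called in ΔG minus WT, where 2 of 16 had an unadjusted p under 0.05, against 11.8% of all genes. In null Atf3, a stress-induced partner of JUN, rose by 0.49 (SE 0.13, limma adjusted p = 0.020) and Nfe2l2, the oxidative stress regulator NRF2, by 0.35 (SE 0.09, adjusted p = 0.019). Nfe2l1, a relative of NRF2 that controls proteasome genes, fell by 0.41 (SE 0.08, limma adjusted p = 0.0042), and Bach2, a repressor, fell by 0.31 (SE 0.09, adjusted p = 0.037). Nfe2l1 kept its call in each alternative that was run. Atf3 lost its call without WT replicate 2 or 3 (0.49 and 0.47, limma adjusted p = 0.052 and 0.054), and Nfe2l2 without WT replicate 1 or 2 or null replicate 1 or 2 (0.28 to 0.36, adjusted p = 0.050 to 0.074). Bach2 lost its call without WT replicate 2 or 3, ΔG replicate 2 or null replicate 1 or 3 (-0.31 to -0.25, limma adjusted p = 0.0504 to 0.14). With the Y-linked covariate and against the WT array of the null Xist pattern Atf3 (limma adjusted p = 0.13 and 0.14), Nfe2l2 (0.20 and 0.19) and Bach2 (0.095 and 0.078) were not called. The count that rose was 0 under both of those settings and without WT replicate 2, and 1 without WT replicate 1 or 3 or null replicate 1, and the count that fell was 1 under both settings and without WT replicate 2 or 3, ΔG replicate 2 or null replicate 1 or 3. Calls over all genes in null minus WT were 2546 to 3895 over omissions of single arrays, beside 3678 with all arrays. In ΔG Nfe2l1 and Atf3 had differences of -0.19 and 0.28 from WT (limma adjusted p = 0.37 and 0.42).

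Upstream of AP-1 stand the MAP kinase and serum response factor genes. Of 18 measured of 23 listed, 1 rose and 1 fell in null minus WT (11.1% beside 18.4% of all genes, median 0.05). In ΔG minus WT none was called and none had an unadjusted p under 0.05, against 11.8% of all genes. Mapk10, the JUN kinase JNK3, fell in null by 0.50 (SE 0.09, limma adjusted p = 0.0036); its signal was dim, at 4.60 to 5.25 over all arrays, and it was not among the genes tested once the dimmest 25% were removed. Elk4, a ternary complex partner of serum response factor, rose by 0.28 (SE 0.08, limma adjusted p = 0.031), a call lost when any WT array or null replicate 1 or 2 was left out (0.25 to 0.29, adjusted p = 0.059 to 0.096), with the Y-linked covariate (0.24, 0.28) and against the WT array of the null Xist pattern (0.26, 0.26). Mapk10 and Creb1 had the lowest p in ΔG minus WT, with differences of -0.18 and -0.11 (adjusted p = 0.52 and 0.59 in limma).

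Of 15 phosphatase and sprouty genes that dampen MAP kinase signals, 1 rose and 1 fell in null minus WT (13.3% beside 18.4% of all genes, median 0.06). In ΔG minus WT none was called, and 1 of 15 had an unadjusted p under 0.05, against 11.8% of all genes. Spry1, an inhibitor of receptor tyrosine kinase signals, fell in null by 0.61 (SE 0.09, limma adjusted p = 0.0012), and ΔG was 0.60 above null (adjusted p = 0.0031). Dusp10, a phosphatase of JNK and p38, rose in null by 0.65 (SE 0.15, limma adjusted p = 0.011). That call was lost with the Y-linked covariate (0.77, limma adjusted p = 0.065) and also against the WT array of the null Xist pattern (0.73). Without null replicate 3, 3 genes of the list rose, and without ΔG replicate 3, 2 fell. Calls over all genes in null minus WT were 2944 and 3895 in these fits, beside 3678 with all arrays. Dusp1, an early response phosphatase, had a difference of 0.54 in ΔG minus WT (SE 0.23, limma adjusted p = 0.38), and all 3 ΔG readings (9.28 to 9.76) exceeded those of WT (8.65 to 9.09). Of 16 measured of 20 regulators that act on AP-1 protein or with it, 1 rose and none fell in null minus WT (6.25% beside 18.4% of all genes, median 0.0006). In ΔG minus WT none was called, and 1 of 16 had an unadjusted p under 0.05, against 11.8% of all genes. Tead4, a TEAD factor that shares many sites with AP-1, rose in null by 0.40 (SE 0.10, limma adjusted p = 0.016). That call was lost without WT replicate 3 (0.37, limma adjusted p = 0.0501) or null replicate 2 (0.29, 0.051) and with the Y-linked covariate (0.48, 0.078). Against the WT array of the null Xist pattern the Tead4 call was lost as well (difference 0.45). ΔG was 0.50 below null for Tead4 (limma adjusted p = 0.010). In ΔG minus WT Tead2 and Fbxw7, a ubiquitin ligase subunit that targets JUN, had differences of 0.21 and 0.15 (adjusted p = 0.27 and 0.61 in limma).

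Genes known as targets of AP-1 moved in both directions in null cells. Of 30 measured of 36 listed, 7 rose and 2 fell in null minus WT, with a median of 0.24. Together these are 30% of the list, where 8.38% of all genes rose, 10.1% fell and 18.4% were called. Dnmt1, the maintenance DNA methyltransferase, which E2F also drives, rose 2.79-fold (log2 1.48, SE 0.10, limma adjusted p = 1.1e-05), Ezr, a linker of membrane and actin, 1.73-fold and Nqo1, a quinone reductase, 1.51-fold (log2 0.79 and 0.60, adjusted p = 0.0014 and 0.0032). Plau, the protease urokinase, read 7.61, 7.67 and 7.51 in WT, 8.06, 8.15 and 7.9996 in ΔG and 8.07, 8.58 and 7.91 in null, so both mutants lay above WT on every array. It rose 1.51-fold in null (log2 0.59, SE 0.14, limma adjusted p = 0.013), as did Hbegf, a ligand of the EGF receptor, by 1.47-fold (log2 0.55, SE 0.14, adjusted p = 0.018).

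Both called targets that fell in null encode secreted proteins of inflammation or matrix turnover. Mmp13, a collagenase, read 6.68, 7.50 and 6.16 in WT, 5.93, 5.69 and 5.76 in ΔG and 5.21, 5.07 and 5.47 in null, a 2.89-fold lower level in null (log2 -1.53, SE 0.25, limma adjusted p = 0.0018). Ccl2, a chemokine, was 2.12-fold lower (log2 -1.08, SE 0.19, adjusted p = 0.0027 in limma). In ΔG minus WT Dnmt1 alone of the list was called, 1.97-fold higher (log2 0.98, SE 0.10, limma adjusted p = 0.0016), beside 0.813% of all genes. There 6 of 30 had an unadjusted p under 0.05, against 11.8% of all genes. In ΔG minus null Dnmt1 and Ezr were lower by -0.50 and -0.73 (limma adjusted p = 0.011 and 0.0056), and Dnmt1 missed the threshold without ΔG replicate 1 or 2 or null replicate 1 (-0.49, -0.47 and -0.48, adjusted p = 0.0501, 0.051 and 0.053).

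The count of targets that rose in null was 4 without null replicate 1, 4 without null replicate 2 and 11 without null replicate 3. The count that fell was 4 without null replicate 2. Without null replicates 1, 2 and 3 in turn, calls over all genes in null minus WT were 2546, 2924 and 2944, beside 3678 with all arrays. In ΔG minus WT 2 rose without null replicate 2, and 1 fell without WT replicate 3 and without ΔG replicate 3. Calls over all genes there were 198, 129 and 252 in the same order, beside 162 with all arrays. In ΔG minus null the count that was lower was 1 without ΔG replicate 1, ΔG replicate 2 or null replicate 1. It was 4 without ΔG replicate 3. Calls over all genes there were 762, 885, 847 and 2408 in the same order, beside 1737 with all arrays. Hbegf lost its call without WT replicate 1 or 3 or null replicate 1 or 2 (0.40 to 0.54, limma adjusted p = 0.055 to 0.064). Against the WT array of the null Xist pattern 4 rose and 1 fell, and with the Y-linked covariate 4 rose and none fell. Under both of these settings Ezr, Nqo1, Plau, Hbegf and Ccl2 missed the threshold (limma adjusted p = 0.057 to 0.096), and Mmp13 missed it with the covariate (-0.80, adjusted p = 0.080).

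Other immediate early genes, which share the serum response with Fos, Fosb and Junb, were higher in null cells in part. Of 22 measured, 6 rose and none fell in null minus WT, with a median of 0.22. That is 27.3% of the list, where 8.38% of all genes rose, 10.1% fell and 18.4% were called. Klf10, a zinc finger repressor, rose 1.75-fold, reading 6.78 to 7.20 in WT, 6.81 to 7.23 in ΔG and 7.74 to 7.81 in null (log2 0.81, SE 0.12, limma adjusted p = 0.0010). Egr3, a zinc finger factor, rose 1.39-fold (log2 0.48, SE 0.08, adjusted p = 0.0016 in limma), and the nuclear receptors Nr4a2 and Nr4a1 rose 1.65-fold and 1.55-fold (adjusted p = 0.020 and 0.024). Trib1, a pseudokinase, rose 1.28-fold (limma adjusted p = 0.046). None was called in ΔG minus WT, where 2 of 22 had an unadjusted p under 0.05, against 11.8% of all genes. Klf2 and Btg2 had differences of -0.24 and 0.35 there (adjusted p = 0.19 and 0.30 in limma). In ΔG minus null 5 were lower, or 22.7% of the list beside 4.27% of all genes. Among them were Klf10 by -0.71 and Egr3 by -0.43 (limma adjusted p = 0.0052 and 0.0067).

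**Figure D5:**
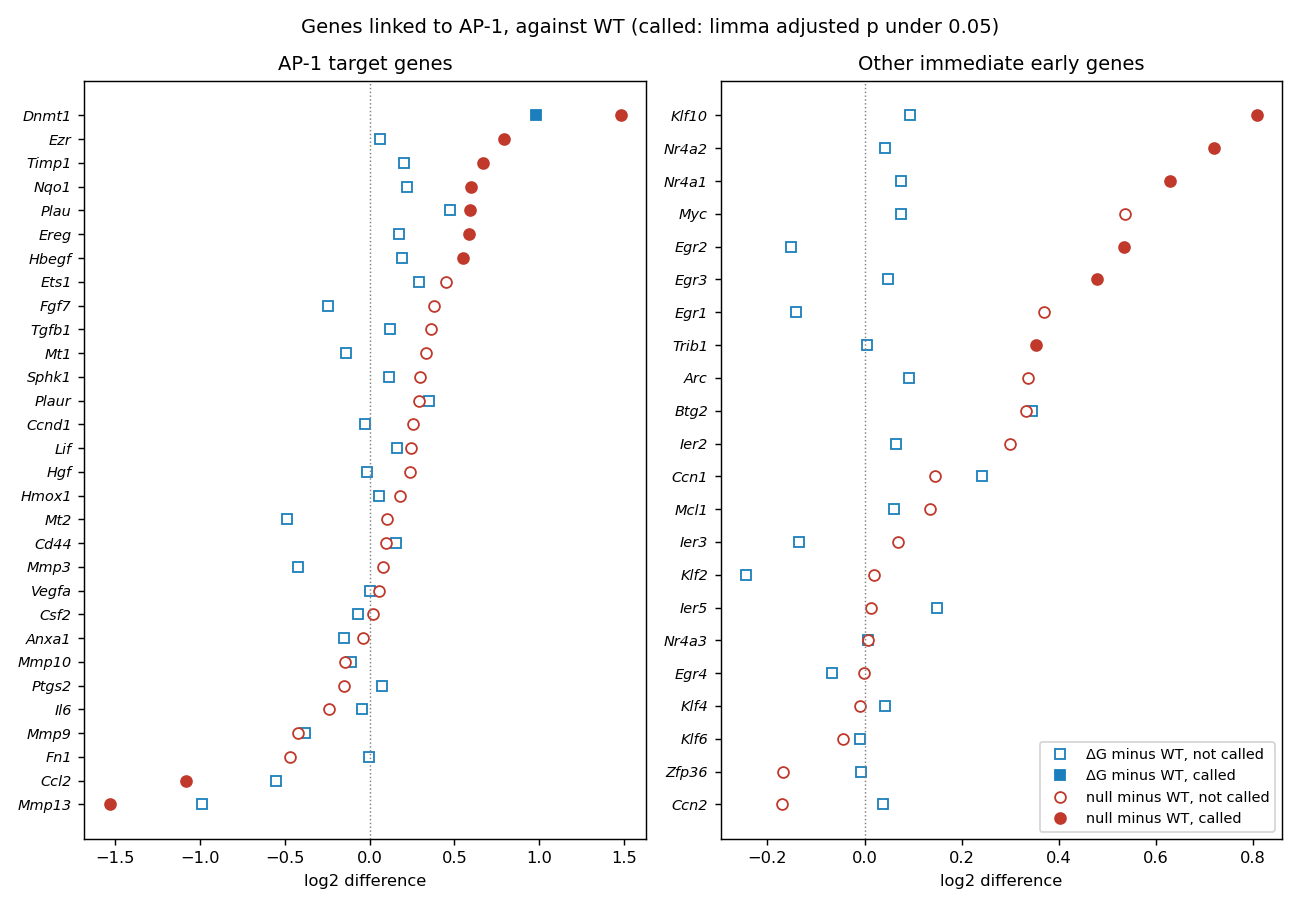
Log2 difference from WT (horizontal axis) of AP-1 target genes (left) and other immediate early genes (right), with ΔG as squares and null as circles; filled symbols have a limma adjusted p under 0.05. On the left 9 circles and 1 square (Dnmt1) are filled, and on the right 6 circles and no square.

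The number of immediate early calls depended on the choice of arrays, and so did the number of calls over all genes. The count that rose in null ranged from 2 to 8 over omissions of single arrays and from 1 to 9 over all 19 alternatives. The count was 2 without WT replicate 1 and 3 without null replicate 1 or 2. It was 2 against the WT array of the null Xist pattern and 1 with the Y-linked covariate. Calls over all genes in null minus WT were 3678 with all arrays and 1580 with the Y-linked covariate. They were 2967 without WT replicate 1, 2546 without null replicate 1 and 2924 without null replicate 2. The count lower in ΔG than in null was 2 without ΔG replicate 1 or 2 or any one null array. It was 3 without any one WT array and 9 without ΔG replicate 3. Calls over all genes there, 1737 with all arrays, were 762 to 1288, 1624 to 1813 and 2408 under these omissions in turn. Nr4a2 lost its call without WT replicate 1 or null replicate 1 or 3 (0.63 to 0.72, limma adjusted p = 0.061 to 0.073), Nr4a1 without WT replicate 1 or 2 or null replicate 2 or 3 (0.53 to 0.67, 0.0503 to 0.090), and Trib1 without WT replicate 1 or 3, ΔG replicate 1 or 2 or null replicate 1 or 2 (0.24 to 0.38, 0.054 to 0.15). Klf10 and Egr3 kept theirs without any one array, and Klf10 missed the threshold with the Y-linked covariate (0.51, adjusted p = 0.056 in limma). Under the covariate and against the WT array of the null Xist pattern Nr4a1 (limma adjusted p = 0.32 and 0.27), Nr4a2 (0.26 and 0.21) and Trib1 (0.085 and 0.085) were not called. In ΔG minus null the covariate ended the calls of Klf10, Egr3, Nr4a2, Dnmt1, Ezr, Tead4 and Spry1 (limma adjusted p = 0.069 to 0.63). Calls over all genes in that comparison went from 1737 to 53 with the covariate, so these losses are not particular to the named genes.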

How the data were processed

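The deposited table holds log2 values that the authors made with RMA (background correction, quantile normalisation and probe set summary); BRB-ArrayTools is named in the series text, and the submitters' processing notes list RMA and affy without versions. The build is not given in the sources used here; probe sets carry no detection call here, and precision is limited by array number. Of 35512 probe sets, 21789 had exactly 1 symbol in the platform annotation, and the probe set with the highest mean stood for each of 19938 genes. Genotype means were estimated over all 9 arrays at once in limma 3.58.1 under R 4.3.3 (lmFit, eBayes, residual degrees of freedom 6). P-values were adjusted by Benjamini-Hochberg over all genes in each comparison, with 0.05 as threshold. The fit was also run on simulated data with independent noise for each gene and array. Those data lacked the Xist split and any variation shared between genes, so the run does not speak to either. Alternatives were repeated quantile normalisation, median centring, removal of the dimmest 25% of genes, an eBayes trend, array weights, means over probe sets, fits of 2 groups, the replicate number as a block, a covariate of 3 measured Y-linked genes, WT arrays of one Xist pattern and omission of each array. The members and the 12 gene lists were chosen with earlier results of these data known. From each list, called genes against WT were named by lowest adjusted p, up to 5 a direction, or else the 2 of lowest p.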

Additional observations from a re-analysis of the deposited data

How the results depend on the processing

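The call of Fosl1 in null minus WT held in all 19 alternatives. The number of called members there was 1, but 4 with array weights and 2 with only the 2 groups fitted, and 1 to 3 over the omission of single arrays. In ΔG minus null it was 1, but 3 with array weights and 0 with the Y-linked covariate, and 0 to 2 over omissions. In ΔG minus WT it stayed 0 in all 19 (1 member has an unadjusted p under 0.05). Weights raised the calls over all genes as well, from 3678 to 4851 in null minus WT and from 1737 to 3697 in ΔG minus null, and in ΔG minus WT from 162 to 292. The Y-linked covariate lowered the calls over all genes, to 1580 in null minus WT, 53 in ΔG minus null and 128 in ΔG minus WT. Some differences changed sign, none passing the threshold with the new sign; most were near 0, but those of Fos in ΔG minus null (-0.32) and of the leukocyte markers C1qc (-0.38) and Ptprc (-0.32) in null minus WT were not. With the covariate the values were 0.18 for Fos and 0.28 for Junb in ΔG minus null, 0.011 for Jun and 0.098 for Junb in ΔG minus WT, and -0.18 for Junb, 0.49 for C1qc and 0.039 for Ptprc in null minus WT. Against WT arrays of the same Xist pattern they were 0.0054 for Jun and 0.087 for Junb in ΔG minus WT, and -0.14 for Junb and 0.38 for C1qc in null minus WT. Over omissions of single arrays the ΔG minus WT differences ranged from -0.12 to 0.22 for Fos, -0.0063 to 0.12 for Fosl2, -0.083 to 0.055 for Jun and -0.15 to 0.11 for Junb. Those of ΔG minus null ranged from -0.23 to 0.033 for Fosb and from -0.22 to 0.039 for Junb, and of null minus WT from -0.018 to 0.17 for Junb. Causes were not tested. The correlations of same-numbered arrays' deviations were -0.08 to 0.27, which cannot decide whether the numbers mark pairs. With the replicate number as a block, calls over all genes went from 162 to 211 in ΔG minus WT. In null minus WT they went from 3678 to 3777 and in ΔG minus null from 1737 to 1977. With the replicate block the counts of called members stayed 0, 1 and 1, the Fosl1 rise in null had a limma adjusted p of 5e-04, and Bach2 (-0.31, adjusted p = 0.052) lost its call.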
